A study of Mus musculus with 6 samples.

Results

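The mitochondrial ribosomal proteins are the protein subunits of the ribosome that works inside mitochondria, and their genes are named Mrpl for the large and Mrps for the small subunit. Every gene whose symbol begins with Mrpl or Mrps and a digit, and that had a probe set assigned to no other gene, was taken, which gave 77 of the 19938 genes measured. Where a gene had several probe sets, the one with the highest mean over all 6 arrays was used. The members were chosen by their names alone, but the group itself was selected on the differences between knockdown and wild type on these arrays, which were known. The calls given here therefore describe the group and are no independent evidence that it changed.

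Mitochondria keep a small genome that encodes a few core subunits of the respiratory chain and of ATP synthase. These are made by the mitochondrial ribosome, whose RNA comes from mitochondrial DNA while all of its proteins are encoded in the nucleus, made in the cytosol and imported. Some of the proteins have counterparts in the bacterial ribosome, and others were added in the course of mitochondrial evolution. The nuclear genes are known to be expressed in step with cell growth, and MYC is known among the factors that drive them.

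Total RNA was hybridised to Affymetrix arrays, 1 array per mouse, from 3 mice with the mutation given as MYB knockdown and from 3 wild type mice. All 6 were male C57BL6 mice, 4 weeks old, and the cells were sorted from bone marrow by flow cytometry as Kit+CD11b+Lin-Low, called K11bL, which the title of the series describes as myeloproliferative. The labels state neither the allele or method by which Myb was lowered nor the markers of the lineage mix. The comparison asks how these cells differ in expression when Myb, a transcription factor of blood progenitors, is lowered.

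Values are the authors' log2 values per probe set, and a difference is knockdown minus wild type on that scale. Tests are from limma, with p-values adjusted by Benjamini-Hochberg over the 13956 genes tested, after the dimmest 30% of genes were left out. Of these genes 854 (6.12%) rose and 765 (5.48%) fell at an adjusted p under 0.05, or 11.6% in either direction. Myb had 11.26, 11.08 and 11.14 in knockdown mice, against 11.47, 11.46 and 11.46 in wild type mice. It fell by 0.30 ± 0.06 (SE; limma adjusted p = 0.0196), and the groups lay apart. The call was lost in 6 of 15 other fits, at adjusted p between 0.0662 and 0.0963 (limma): after median centring, with eBayes without a trend, without knockdown mouse 2 and without any 1 of the wild type mice. Kit and Itgam, the gene of CD11b, the markers of the gate, were brighter than 95.8% and 91.0% of genes and differed by -0.27 ± 0.08 and -0.39 ± 0.17 (limma adjusted p = 0.06 and 0.202). Knockdown mouse 3 stood apart, with correlations over all probe sets of 0.977 and 0.984 with the other knockdown arrays, where those had 0.994 with each other. In bulk RNA, fewer cells of a type and less RNA per cell cannot be told apart.

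Most mitochondrial ribosomal protein genes were slightly brighter in the knockdown. The mean was higher in knockdown than in wild type mice for 72 of the 77 genes, against 53.6% of all genes tested. The median difference was 0.25, against 0.02 over all genes tested. Of the 77 genes, 9 (11.7%) rose in the test, against 6.12% of all genes tested, and 0 fell, against 5.48%. At an unadjusted p under 0.05, limma gave 38 members higher and 0 lower, where 15% of all genes tested were higher. The share of all genes lower at that threshold was not taken. The 3 knockdown values all lay above the 3 wild type values for 41 members, against 19.9% of all genes tested, and for 0 members did all of them lie below, against 14.4%. After centring each array on its median 18 members rose, against 10.3% of all genes, and with array weights 44, against 16.8%. Since this contrast was known when the group was chosen, nothing is read from these shares.

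**Figure D1:**
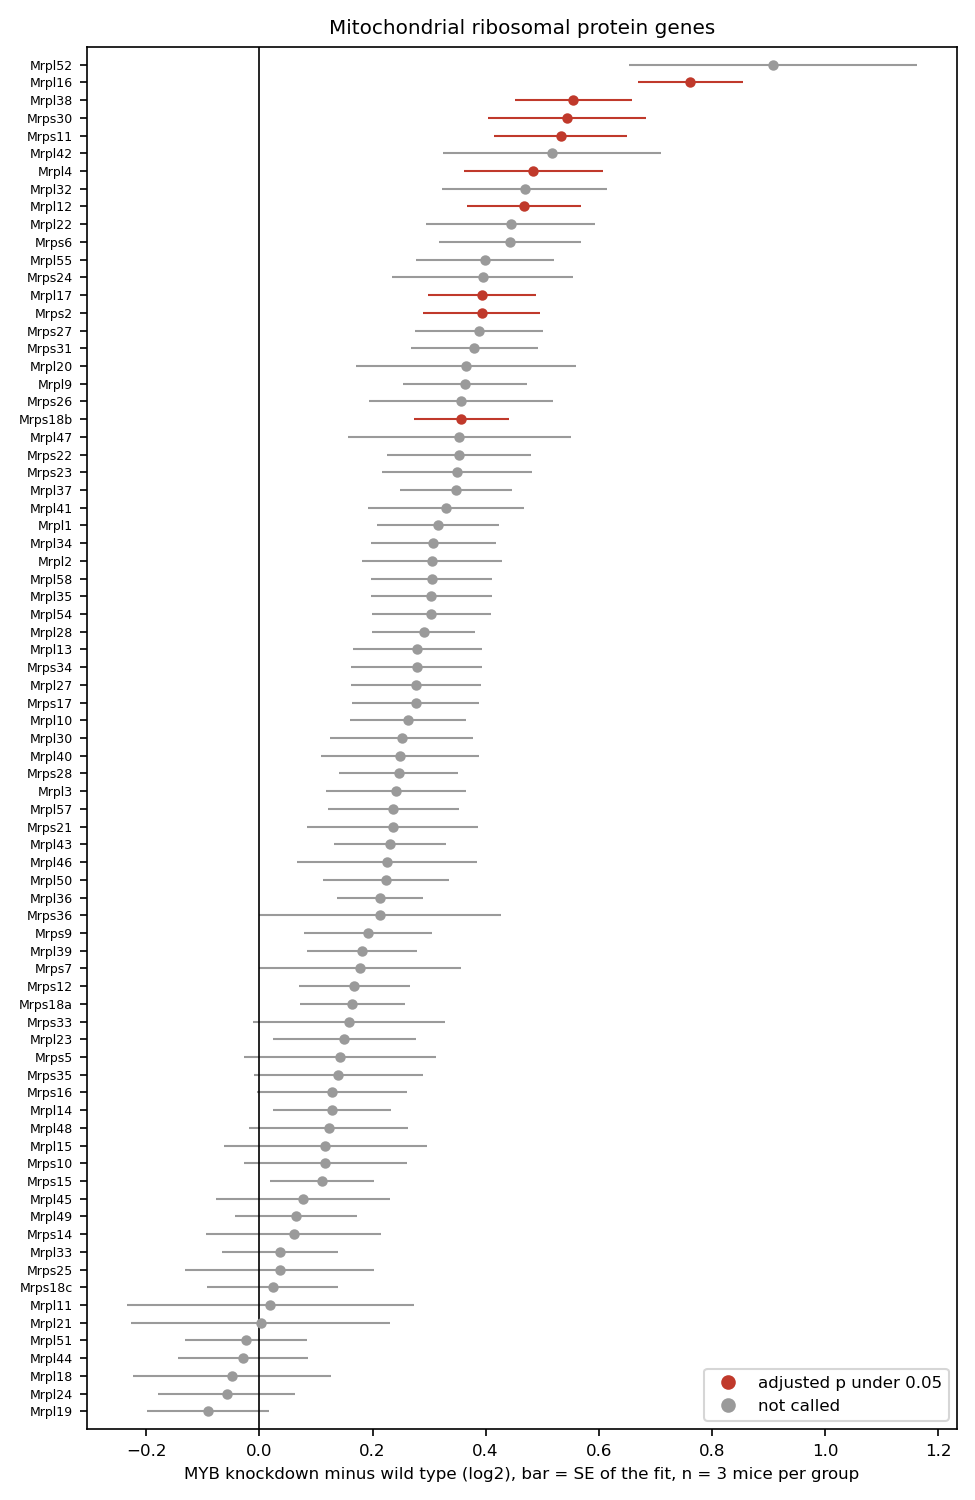
Difference between MYB knockdown and wild type for each of the 77 mitochondrial ribosomal protein genes (log2, horizontal axis), with the SE of the fit as bars and 3 mice per group. Red points are the 9 genes with an adjusted p under 0.05, and the differences run from -0.09 for Mrpl19 to 0.91 for Mrpl52.

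All 77 genes were expressed well above the dim end of the arrays, and none was lost to the filter. Their means over all 6 arrays ran from 6.65 to 10.52 with a median of 8.54, so the lowest of them still lay above 54.5% of genes. The brightest probe sets were those of Mrpl23, a protein at the end of the exit tunnel (10.52), Mrps15 (10.29) and Mrpl36 (10.25), a very small protein. The dimmest were those of Mrps12, a protein of the decoding centre (6.65), Mrpl22, which lines the exit tunnel (6.91), and Mrps27, a protein of the small subunit with no bacterial counterpart (7.30). Probe sets bind with different strength, so these brightnesses do not rank the amounts of RNA. None of these 6 genes passed the test; their differences were 0.15, 0.11 and 0.21 for the bright ones and 0.17, 0.44 and 0.39 for the dim ones.

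The promoters of the group are shown for 4 members: the one with the largest rise that passed the test (Mrpl16), one that rose and shares its start region with another member (Mrps11), one that rose and carries ETS letters (Mrpl17), and the one with the largest difference, chosen after its values were seen (Mrpl52). Each run holds the 250 bases before the start of the gene, 5′ to 3′ on the strand of the gene, from RefSeq on GRCm38.p6. They lie at chr19:11770165-11770414 (plus strand), chr7:78782881-78783130 (plus strand), chr7:105811088-105811337 (minus strand) and chr14:54426659-54426908 (plus strand). Capitals mark CCGGAAG, bound by ETS factors such as GABP, in either orientation, and in Mrps11 the 11 letters of the YY1 motif, read from the other strand. Mrpl16 held none of either.
Mrpl16: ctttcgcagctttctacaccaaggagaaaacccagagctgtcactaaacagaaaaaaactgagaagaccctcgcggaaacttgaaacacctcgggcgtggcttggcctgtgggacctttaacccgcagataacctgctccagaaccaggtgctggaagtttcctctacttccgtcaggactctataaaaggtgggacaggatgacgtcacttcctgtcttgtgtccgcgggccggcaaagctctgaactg
Mrps11: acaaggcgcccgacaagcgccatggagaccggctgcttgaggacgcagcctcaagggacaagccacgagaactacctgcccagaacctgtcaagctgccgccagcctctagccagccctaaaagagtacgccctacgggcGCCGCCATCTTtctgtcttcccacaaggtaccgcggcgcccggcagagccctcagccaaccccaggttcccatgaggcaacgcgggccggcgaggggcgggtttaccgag
Mrpl17: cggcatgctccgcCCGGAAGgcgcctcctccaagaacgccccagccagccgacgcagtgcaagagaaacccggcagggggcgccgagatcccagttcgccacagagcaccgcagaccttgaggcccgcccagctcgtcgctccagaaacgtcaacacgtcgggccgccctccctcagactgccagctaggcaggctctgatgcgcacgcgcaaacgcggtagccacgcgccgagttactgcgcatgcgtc
Mrpl52: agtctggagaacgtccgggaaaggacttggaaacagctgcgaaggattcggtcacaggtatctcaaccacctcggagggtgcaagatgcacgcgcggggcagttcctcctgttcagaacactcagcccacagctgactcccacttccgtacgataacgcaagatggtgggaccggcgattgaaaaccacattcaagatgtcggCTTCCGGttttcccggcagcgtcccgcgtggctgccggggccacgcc

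A window of 300 bases (250 before and 50 after the start) was found for 68 of the 77 genes, and the first window listed was used for the 3 genes that had several. CCGGAAG stood in 24 of the 68 windows (35.3%), against 16.3% of the windows of all genes tested and 9.12% of all windows. The YY1 motif stood in 5 (7.35%), against 1.46% of those of genes tested. The 10 letters of the motif of NRF1, a known regulator of mitochondrial genes, stood in 3 (4.41%), against 1.89%. CACGTG, the E-box that MYC binds, stood in 5 (7.35%), against 9.88%. CCAAT stood in 26 (38.2%), against 37.7%, and AACNG, the core that MYB binds, in 49 (72.1%), against 77.8%. Both strands were searched, none of these motifs contains another, and a match is a run of letters and not a site of binding. The 24 members with CCGGAAG had a median difference of 0.24, and the 44 without it 0.26. Of the 7 members that rose and have a window, 2 held CCGGAAG and 0 held CACGTG or the NRF1 motif.

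Mrpl16, the counterpart of a bacterial protein near the catalytic centre of the large subunit, had the largest rise that passed the test. Its log2 values were 9.86, 10.002 and 9.86 in knockdown mice 1 to 3, against 9.06, 9.12 and 9.26 in wild type mice. The groups lay well apart, and the knockdown mice were close together. The mean was 9.91 ± 0.08 in knockdown and 9.15 ± 0.10 in wild type (SD, n = 3 each). It rose by 0.76 ± 0.09 (SE), or 1.70-fold (limma, adjusted p = 0.00147). It was the member that passed under each of 15 other settings, leaving out each mouse included, with adjusted p between 2.31e-05 and 0.0142. It was also the 1 member that both passed and changed by at least 1.5-fold.

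Of the other large subunit genes, Mrpl38, a protein of the central protuberance, had 8.46, 8.55 and 8.59 in knockdown mice, against 7.86, 7.98 and 8.09 in wild type mice. It rose by 0.55 ± 0.10 (1.47-fold, limma adjusted p = 0.0117), and its groups did not overlap. Mrps30, which despite its name sits in the large subunit, had 7.79, 7.73 and 7.48 in knockdown mice, against 7.22, 6.88 and 7.27 in wild type mice. Its rise by 0.54 ± 0.14 (limma adjusted p = 0.0411) came with the widest spread among the called genes in wild type, where mouse 2 was lowest. Mrpl4, a protein of the exit tunnel, had 9.11, 9.17 and 9.52 in knockdown mice, against 8.75, 8.75 and 8.85 in wild type mice. It rose by 0.48 ± 0.12 (limma adjusted p = 0.0398), with knockdown mouse 3 highest.

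Mrpl12 is the protein of the stalk that recruits translation factors. It had 9.40, 9.70 and 9.56 in knockdown mice, against 9.06, 9.08 and 9.12 in wild type mice, so the wild type mice were close together and the knockdown mice spread. It rose by 0.47 ± 0.10 (1.38-fold, limma adjusted p = 0.0214). Mrpl17, another counterpart of a bacterial protein, had 8.43, 8.46 and 8.56 in knockdown mice, against 8.15, 8.05 and 8.08 in wild type mice. It rose by 0.39 ± 0.10 (limma adjusted p = 0.0342), without overlap.

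In the small subunit 3 genes rose. Mrps11, the counterpart of a bacterial protein of the platform that holds the messenger RNA, had 8.24, 8.11 and 8.46 in knockdown mice, against 7.72, 7.68 and 7.81 in wild type mice. It rose by 0.53 ± 0.12 (1.45-fold, limma adjusted p = 0.0232), with knockdown mouse 3 highest. Mrps2 had 8.90, 8.98 and 9.16 in knockdown mice, against 8.59, 8.57 and 8.70 in wild type mice, and rose by 0.39 ± 0.10 (limma adjusted p = 0.045). Mrps18b had 10.14, 10.10 and 10.01 in knockdown mice, against 9.67, 9.69 and 9.82 in wild type mice, and rose by 0.36 ± 0.08 (1.28-fold, limma adjusted p = 0.0311). None of the 3 genes overlapped between the groups.

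Mrps18b is 1 of 3 paralogues that share descent from a single bacterial protein but hold different places: the products of Mrps18b and Mrps18c are in the small subunit and that of Mrps18a is in the large one. Mrps18a had 8.76, 8.88 and 8.91 in knockdown mice, against 8.72, 8.63 and 8.71 in wild type mice (difference 0.16 ± 0.09, limma adjusted p = 0.327). Mrps18c had 9.21, 9.31 and 8.97 in knockdown mice, against 9.18, 9.02 and 9.21 in wild type mice (difference 0.02 ± 0.12, limma adjusted p = 0.939). The knockdown values of Mrps18a lay narrowly above the wild type ones, while those of Mrps18c overlapped them. Whether the 3 paralogues differ in their change was not tested.

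The largest difference was that of Mrpl52, a protein of the large subunit with no bacterial counterpart, but it did not pass the test. Its values were 8.67, 8.83 and 9.75 in knockdown mice, against 8.08, 8.11 and 8.33 in wild type mice. All knockdown mice lay above all wild type mice, and mouse 3 lay far above the other two. The difference was 0.91 ± 0.25 (1.88-fold, limma adjusted p = 0.0553). Without knockdown mouse 3 it was 0.58 ± 0.09 (limma adjusted p = 0.00227).

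**Figure D2:**
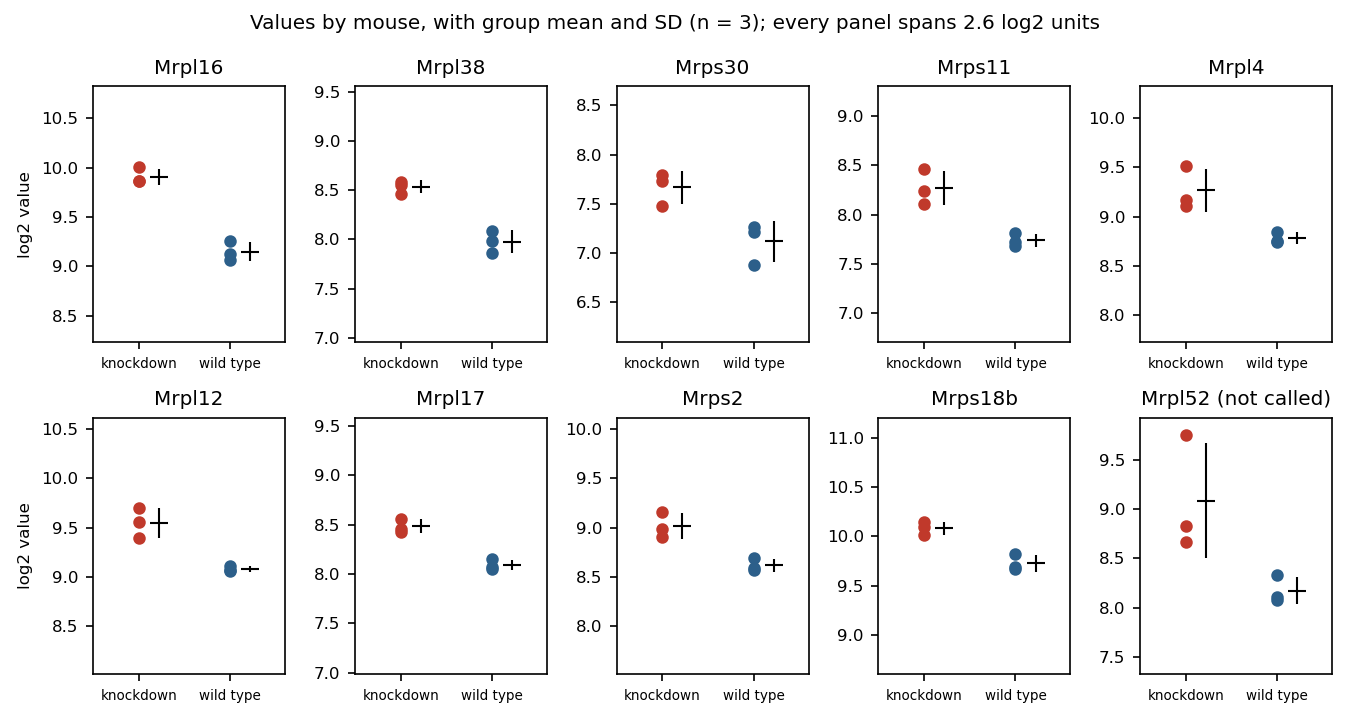
Log2 values by mouse for the 9 genes that passed the test and for Mrpl52, which did not (red, MYB knockdown; blue, wild type). The crosses give the group mean and SD (n = 3); panels have the same span and different centres, and the 2 groups do not overlap in any of the 10 panels.

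The remaining genes did not pass the test. The means of 5 genes were lower in the knockdown, all of them of the large subunit: Mrpl51 (-0.02), Mrpl44 (-0.03), Mrpl18 (-0.05), Mrpl24 (-0.06) and Mrpl19 (-0.09), with adjusted p between 0.68 and 0.934 (limma). These 5 were named after their values were seen. The groups overlapped for each of them, and each had a positive difference in at least 1 of 15 other fits. Of the 41 members whose groups did not overlap, 32 were not called.

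By place in the ribosome, the large subunit was measured with 50 genes, of which 6 rose (median difference 0.27), and the small subunit with 26 genes, of which 3 rose (median 0.24). The remaining gene, Mrps36, encodes a protein that is known as a part of the 2-oxoglutarate dehydrogenase complex. The ribosomal nomenclature gives 46 of the genes the name of a bacterial counterpart and counts the other 31 as specific to mitochondria, among these Mrps18a and Mrps18b, although their family has a bacterial ancestor. The 46 had 6 that rose and a median of 0.26, and the 31 had 3 that rose and a median of 0.25. Within the small subunit the 16 named for a bacterial counterpart had a median of 0.19, and the 10 others, Mrps18b included, had 0.35. The differences between these classes were not tested.

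Of the 77 genes, 8 had 2 probe sets of their own. In 7 of them both probe sets had a positive difference: Mrpl23 (0.15 and 0.16), Mrpl27 (0.28 and 0.18), Mrpl41 (0.33 and 0.27), Mrpl47 (0.35 and 0.23), Mrps33 (0.16 and 0.11), Mrps36 (0.21 and 0.26) and Mrps5 (0.14 and 0.12), the brighter one first. In Mrpl51 the brighter differed by -0.02 and the other by 0.10. None of these genes passed the test. RefSeq names pseudogenes for 4 members (Mrpl23, Mrpl27, Mrpl48 and Mrps36), and whether the probes separate a gene from its copies was not tested.

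The height of the group differed between mice within each genotype as well. Against the wild type mean of each gene, the median over the 77 genes was 0.27, 0.37 and 0.16 in knockdown mice 1, 2 and 3, against 0.05, -0.09 and 0.05 in wild type mice 1, 2 and 3. Over all genes tested the same medians lay between -0.01 and 0.05. All 3 knockdown mice thus lay above all 3 wild type mice, mouse 3 the least. For 75 nuclear-encoded subunits of the respiratory chain and ATP synthase these medians were 0.126, 0.164 and 0.091, against 0.046, -0.062 and 0.024. For 59 cytosolic ribosomal proteins they were 0.0895, 0.1152 and 0.0345, against 0.0186, -0.042 and 0.0308. In both of these lists, too, knockdown mouse 3 was the least raised and wild type mouse 2 the lowest. In wild type mouse 2, 60 of the 77 genes (77.9%) had their lowest wild type value, against 35.7% of all genes tested. Without wild type mouse 2 the median difference of the group was 0.21, and without wild type mouse 1 or 3 it was 0.30 and 0.29.

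**Figure D3:**
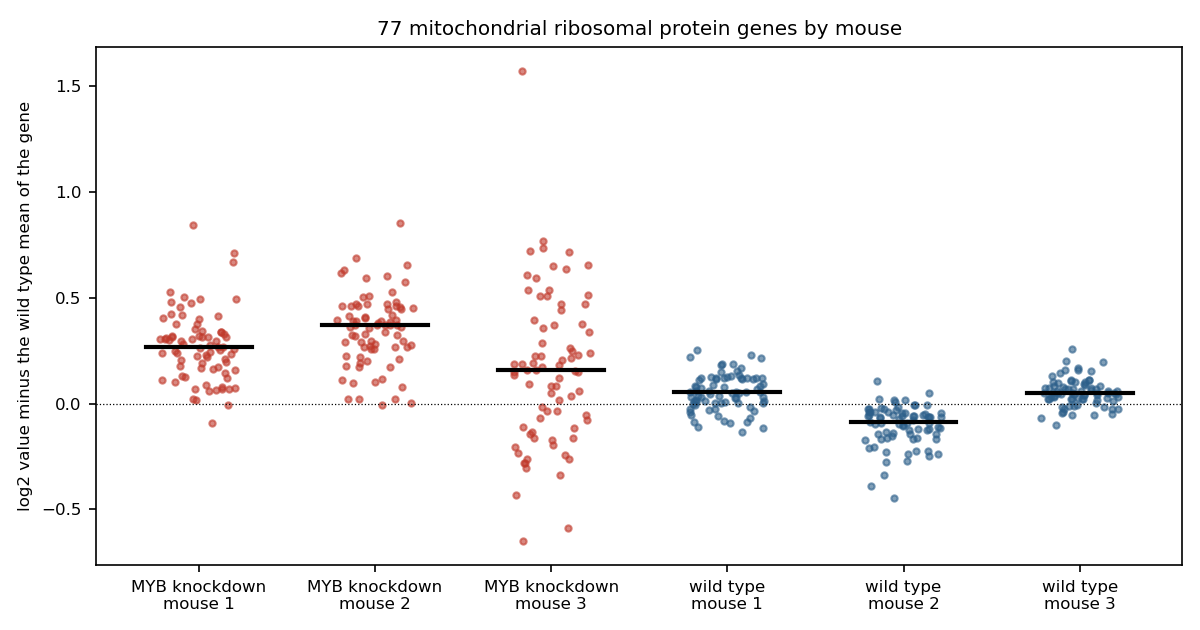
Log2 value of each of the 77 genes minus its wild type mean, by mouse; each point is a gene and the black line is the median of the mouse. Knockdown mice 1 and 2 lie almost entirely above 0, knockdown mouse 3 spreads to both sides, and wild type mouse 2 lies lowest among wild type mice.

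Knockdown mice 1 and 2 were alike and knockdown mouse 3 was not. The value of mouse 1 lay above all wild type mice for 66 of the 77 genes and that of mouse 2 for 68, against 40.9% and 41.3% of all genes tested. That of mouse 3 did so for 46 genes (59.7%, against 45.1% of all genes tested), and for 17 genes (22.1%, against 36.5%) it lay below all wild type mice. The value lay below all wild type mice for 1 gene in mouse 1 and for 0 in mouse 2, against 36.1% and 29.9% of all genes tested. The SD over the 77 genes of mouse 3 minus the mean of mice 1 and 2 was 0.35, against 0.12 for mouse 1 minus mouse 2. Over all genes tested these were 0.37 and 0.19.

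The genes at the ends of this spread were large and small subunit genes alike, and were named after their values were seen. Mrpl11, a protein at the base of the stalk, had 8.84, 8.93 and 7.88 in knockdown mice 1, 2 and 3, against 8.66, 8.41 and 8.52 in wild type mice. Mrpl21 had 8.08, 8.23 and 7.26 in knockdown mice, against 7.91, 7.76 and 7.90 in wild type mice. Mouse 3 was the lowest of all mice for both genes and mouse 2 the highest. At the other end, Mrps24, a small subunit protein, had 8.49, 8.66 and 9.13 in knockdown mice, against 8.39, 8.34 and 8.36 in wild type mice. Mouse 3 was the highest, as in Mrpl52.

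Without knockdown mouse 3, 47 of the 77 genes (61.0%) passed the test as higher, against 17.2% of all genes tested, and all 9 genes named above were among them. The median difference was then 0.32, and 76 of the 77 genes had a mean above wild type, against 72 on all mice. The share of all genes with a mean above wild type in that fit was not taken. In that fit Mrps26 was higher by 0.55 ± 0.08 (limma adjusted p = 0.0015) and Mrps23 by 0.48 ± 0.08 (limma adjusted p = 0.00182); both were named after their values were seen. Leaving out wild type mouse 1 gave 1 member that rose (2.12% of all genes), and leaving out wild type mouse 2 also gave 1 (2.19%). It was 2 when wild type mouse 3 was dropped (2.54% of all genes), 2 when knockdown mouse 2 was dropped (3.09%) and 9 when knockdown mouse 1 was dropped (5.57%). These fits have fewer mice.

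**Figure D4:**
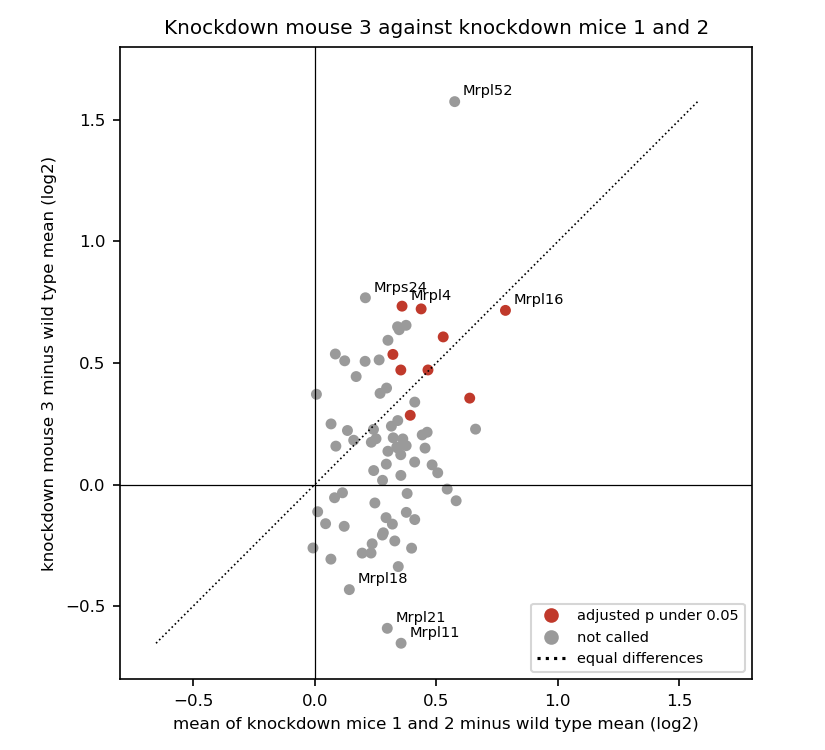
Each point is 1 of the 77 genes: the mean of knockdown mice 1 and 2 minus the wild type mean (log2, horizontal) against knockdown mouse 3 minus the wild type mean (log2, vertical), with the dotted line at equal differences and the 9 genes that passed the test in red. Most genes lie right of 0, and their vertical spread runs from -0.65 for Mrpl11 to 1.58 for Mrpl52.

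Other markers moved with the groups and between the mice. Among all genes tested, 6.12% rose and 5.48% fell. Of 6 measured markers of megakaryocytes and platelets 5 rose, and the log2 of their summed linear values was 11.5 to 11.7 in knockdown mice, against 10.1 to 10.2 in wild type mice. Of 8 markers of mature neutrophils 4 fell, with 13.0 to 13.8 in knockdown mice, against 14.5 to 14.7 in wild type mice. Of 5 eosinophil markers 3 fell (8.9 to 9.8 in knockdown mice, against 11.9 to 12.2 in wild type mice). The 5 measured erythroid markers gave 0 calls in limma. At an unadjusted p under 0.05 in limma, 1 of them was higher, where 15% of all genes tested were higher. Their summed values were 12.1, 11.5 and 12.6 in knockdown mice 1, 2 and 3, against 11.9 to 12.2 in wild type mice. Of 5 markers of progenitors and of the gate, Cd34, a surface marker of progenitors, rose by 0.47 ± 0.07 (limma adjusted p = 0.00377). Mpo, the myeloperoxidase of granulocyte precursors, fell by 1.20 ± 0.07 (limma adjusted p = 3.18e-05). The other 3, Kit, Itgam and Flt3, were not called. Of 5 basophil and mast cell markers 1 rose and 3 fell, of 5 B lymphoid markers 2 fell, of 6 macrophage markers 2 fell, and of 2 T and NK markers limma called 0, also at an unadjusted p under 0.05. The part of these markers in the difference of the ribosomal genes was not tested.

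Neighbouring steps of mitochondrial gene expression were read from lists, beside the 6.12% of all genes tested that rose. The shares that rose were 3.85% for assembly, 7.69% for translation factors and 6.25% for tRNA synthetases. Each share rests on 1 gene, so no rise of these steps is read from them. Of 26 genes for assembly of the mitochondrial ribosome and modification of its RNA 1 rose, Noa1, a GTPase of ribosome assembly, by 0.39 ± 0.09 (limma adjusted p = 0.024), with a median of 0.17 over the list. Of 13 translation factors 1 rose, Tufm, the elongation factor that brings the aminoacyl-tRNA, by 0.37 ± 0.10 (limma adjusted p = 0.0479), with a median of 0.07. Of 16 mitochondrial tRNA synthetases 1 rose, Iars2, by 0.32 ± 0.08 (limma adjusted p = 0.0382), with a median of 0.21. The mitoribosomal proteins with other names, Dap3, Ptcd3, Chchd1 and Gadd45gip1, gave 0 calls in limma at a median of 0.22. At an unadjusted p under 0.05 in limma, 2 of them were higher, where 15% of all genes tested were higher. The groups overlapped in Dap3 and Ptcd3.

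Of 8 genes for processing and stability of mitochondrial RNA 1 rose (12.5%), against 6.12% of all genes tested. This was Elac2, which cuts tRNA 3′ ends, with a rise of 0.33 ± 0.09 (limma adjusted p = 0.0498). The median of the list was 0.12. Among 10 genes for transcription and upkeep of mitochondrial DNA 0 rose and 1 fell, where 5.48% of all genes tested fell. The one that fell was Polg, the catalytic subunit of the mitochondrial DNA polymerase, with 7.76, 7.66 and 7.64 in knockdown mice, against 8.15, 8.30 and 8.16 in wild type mice. It fell by 0.52 ± 0.10 (limma adjusted p = 0.0136), and its groups lay apart. Among 11 nuclear regulators 0 were called by limma, and 8 had a positive difference. Their median was 0.02, the same as over all genes tested. At an unadjusted p under 0.05, limma gave 3 higher and 0 lower, where 15% of all genes tested were higher. Pprc1, a coactivator of mitochondrial genes, differed by 0.62 ± 0.17 (adjusted p = 0.0513 in limma), and Myc by 0.24 ± 0.07 (adjusted p = 0.0586 in limma). Nrf1 (0.02), Gabpa (-0.03), Gabpb1 (0.01) and Yy1 (-0.01) lay near 0. Gabpb2 differed by -0.26 (limma adjusted p = 0.284), with its knockdown values all below the wild type ones. The genes encoded in mitochondrial DNA are not analysed here.

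Beside other large groups, the median difference of 0.25 stood against 0.12 for 75 nuclear-encoded subunits of the respiratory chain and ATP synthase. The median of 59 cytosolic ribosomal proteins was 0.09. Of the respiratory group 4 genes (5.33%) rose and 0 fell. Of the cytosolic group 1 (1.69%) rose and 0 fell, against 6.12% and 5.48% of all genes tested. The highest differences in these were 1.01 for Cox4i2, an alternative subunit of cytochrome oxidase (limma adjusted p = 0.00366), and 1.27 for Rps4l (limma adjusted p = 0.000814). The cytosolic list was taken by gene name, so it includes genes of like names such as Rps4l and Rps4x. Rps4l, the 1 call of that list, had a mean of 7.87. Rps4x, with a mean of 11.82, differed by 0.12 (limma adjusted p = 0.148). The mean was higher in knockdown for 63 of the 75 respiratory genes and 52 of the 59 cytosolic ones, against 53.6% of all genes tested. The 3 knockdown values all lay above the wild type values for 30 (40.0%) and 22 (37.3%) of them, against 19.9% of all genes tested. For 0 genes of either group did all lie below, against 14.4% of all genes tested. Many cytosolic genes, such as Rpl10 (mean 12.55), were brighter than the brightest member, Mrpl23 (10.52). Whether brightness bears on these medians, and whether the groups differ from one another, was not tested.

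**Figure D5:**
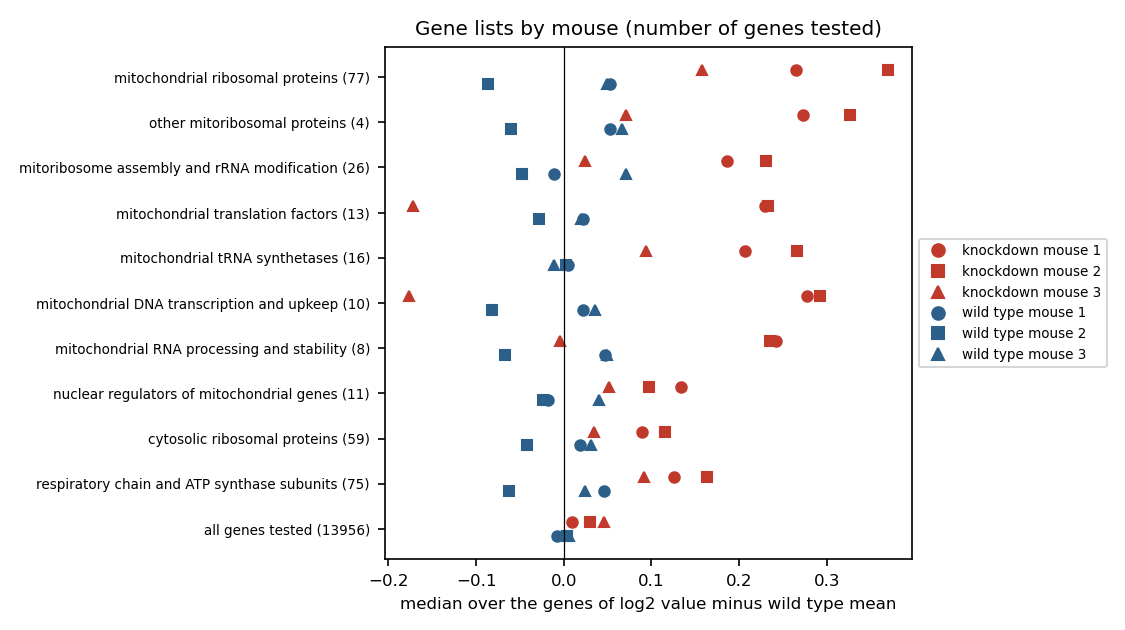
Median over the genes of each list of the log2 value minus the wild type mean, by mouse (red, MYB knockdown; blue, wild type; one symbol per mouse number), with the number of genes tested in brackets. For the 77 mitochondrial ribosomal proteins the 3 knockdown medians lie at 0.16 to 0.37, while knockdown mouse 3 lies at -0.17 for the translation factors and at -0.18 for the upkeep of mitochondrial DNA.

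Some of the genes start head to head with a neighbour, and how common this is over all genes was not measured. Starts that overlap slightly were included, as for Mrpl48 and Rab6a (-36 bases). Of the 68 genes with a window, 24 had a start within 500 bases of that of a gene on the opposite strand, and 22 of these neighbours were tested. Of these, 20 were outside the group, and limma called 0 of them, against 6.12% of all genes tested as higher. At an unadjusted p under 0.05 in limma, 5 of the 20 were higher and 2 lower, where 15% of all genes tested were higher. The median difference of the 20 was 0.05, against 0.02 over all genes tested. The 1 neighbour that rose was Mrps11, itself a member. The pair with both partners in the group was Mrps11 and Mrpl46, whose starts lie 42 bases apart. Mrpl46 had 8.45, 8.47 and 7.91 in knockdown mice, against 8.13, 8.01 and 8.01 in wild type mice (difference 0.23 ± 0.16, limma adjusted p = 0.444). Knockdown mouse 3 was the lowest of all mice for Mrpl46 and the highest for Mrps11. Mrpl43 starts 116 bases from Twnk, the helicase of mitochondrial DNA, and they differed by 0.23 and 0.24 (limma adjusted p = 0.189 and 0.317). Mrps12 starts 147 bases from Sars2, a mitochondrial tRNA synthetase, and they differed by 0.17 and 0.27 (limma adjusted p = 0.34 and 0.152). Other pairs differed in sign: Mrpl50 and Zfp189 by 0.22 and -0.48, and Mrpl48 and Rab6a by 0.12 and -0.25. Of the 20 neighbours outside the group, 13 had a positive difference, against 53.6% of all genes tested. Mrpl46, Mrpl43, Mrpl50 and Mrpl48 were named here after their values were seen.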

How the data were processed

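Expression was measured in sorted bone marrow cells of 3 MYB knockdown and 3 wild type mice, on 1 array each, and the groups follow the labels. The deposited table holds the authors' log2 value for each of 35556 probe sets and array, read as log2 from the values. The submitters' processing notes name Affymetrix Expression Console and limma; how background was handled and arrays were normalized and summarised is not given in the sources used here. Arrays carry no read depth, and their number limits the precision. Each array is labelled as another mouse. With 1 array per mouse, replicate spread holds differences between mice together with those of handling and arrays, which cannot be told apart.

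The platform annotation gave 1 symbol to 21789 probe sets, which were used, several to 1621 and none to 12146. RefSeq (GRCm38.p6) was matched by gene number for 21698. A probe set shared by Mrpl53 and another gene was left out, so Mrpl53 is not among the 77 genes. Knockdown and wild type were compared with limma 3.58.1 in R 4.3.3 (lmFit, then eBayes with its trend option; two-sided, no covariate), with an adjusted p of 0.05 as threshold, and the fit was checked on simulated data. The alternatives were quantile normalization, median centring, other filters on dim genes, the mean of probe sets, eBayes without a trend or robust, array weights, a replicate block, each mouse left out, an adjusted p of 0.1 and a change of at least 1.5-fold. The genes named follow a rule: called members, the 3 brightest and dimmest, the Mrps18 paralogues, members with several probe sets, and up to 3 genes of smallest p per list; others are marked. The members and lists were chosen with earlier results of these data known.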

Additional observations from a re-analysis of the deposited data

How the results depend on the processing

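The median difference of the 77 genes kept its sign under every alternative run, at 0.21 to 0.32 with 1 mouse left out. It was 0.24 after quantile normalization, where all genes had 0.06, and 0.33 after median centring, where all genes had 0.09. The number of members that rose, 9 on all mice, was 18 after median centring, 44 with array weights, 19 at an adjusted p of 0.1 and 1 with at least a 1.5-fold change. With 1 mouse left out it ran from 1 to 47, the highest without knockdown mouse 3. The number that fell was 0 by limma in each of these fits. Over all genes, 854 rose and 765 fell; the rises were 1433 after median centring (70.7% of calls, against 52.7%), 2351 with array weights, 1374 at an adjusted p of 0.1 and 407 with at least 1.5-fold, and the falls were 1561 with array weights and 508 with at least 1.5-fold. With 1 mouse left out, 296 to 2397 rose and 367 to 1397 fell. The array medians were 5.87, 5.90 and 5.89 in knockdown mice, against 5.94, 5.99 and 5.96 in wild type mice. Median centring therefore raised the difference of every gene by the same amount. Why the array medians differed, and the cause of the other shifts, was not tested. Fits without a mouse have fewer samples. The iteration for array weights stopped before full convergence.

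Of the 9 members called, Mrpl16 kept its call in all 15 alternative fits. Mrpl38 and Mrps11 kept it in 12, Mrpl12 in 11, Mrpl4 in 10, Mrpl17 and Mrps18b in 9, and Mrps2 and Mrps30 in 8. With any 1 wild type mouse left out, Mrpl16 was joined by at most 1 other. Over the 15 fits, 16 of the 77 genes had the other sign at least once: all 5 with a negative difference on all mice, 11 with a positive one, and 0 of the called genes. With 1 mouse dropped in turn, Mrps18c ran from -0.050 to 0.12 (-1e-04 when knockdown mouse 1 was dropped), Mrpl51 from -0.093 to 0.045, Mrps36 from -0.011 to 0.38, Mrps5 from -0.017 to 0.33, Mrpl44 from -0.086 to 0.061, Mrpl18 from -0.17 to 0.14, Mrpl24 from -0.14 to 0.067, Mrpl11 from -0.17 to 0.36 and Mrpl21 from -0.18 to 0.30. After median centring, Mrpl51 was at 0.051, Mrpl44 at 0.046, Mrpl18 at 0.026 and Mrpl24 at 0.017. With array weights, Mrpl51 was at 0.014, Mrpl44 at 0.033, Mrpl18 at 0.11, Mrpl24 at 0.0014 and Mrpl19 at 0.038. Mrpl51 was at 0.038 for the mean of its probe sets.

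The replicate numbers name different mice. The deviations of same-numbered mice from their group means had correlations of 0.29, -0.19 and -0.08 over the genes tested. Knockdown mouse 3 with wild type mouse 2 had 0.36. Deviations sum to 0 within each group of 3 mice, so these values cannot decide whether mice were paired. With the replicate block 6 members rose, and over all genes 746 rose and 726 fell. The numbers were not read as a pairing in the main fit.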

Other observations

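The probe set that the annotation gives to both Mrpl53 and Ccdc142, which was left out of the comparison, had log2 values of 7.25, 7.26 and 7.09 in knockdown mice 1, 2 and 3, against 7.20, 7.13 and 7.30 in wild type mice 1, 2 and 3. The groups overlapped.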
